A study of Mus musculus with 6 samples.

Results

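The TSC22 domain family was followed in Pax5-deficient mouse pro-B cells that had been given either an EBF retrovirus or a control retrovirus. The family was read through every probe set whose only gene symbol on the platform was Tsc22d1, Tsc22d2, Tsc22d3 or Tsc22d4. This gave 15 probe sets of 45037 and 4 genes of 18193: 7 probe sets for Tsc22d1, 4 for Tsc22d3 and 2 each for Tsc22d2 and Tsc22d4. The cells of both groups were Pax5-/- pro-B cells, kept with 5 ng/ml of interleukin-7 on a layer of ST2 cells, which are stromal cells from bone marrow. One group received the Mig-EBF virus, which carries the B lineage transcription factor EBF, and the other the MigR1 control virus. GFP-positive cells were sorted 2 days after infection, and each group had 3 arrays, numbered 1 to 3 by the labels. The sources used here give neither the strain, sex and age of the mice behind the cultures nor whether replicates were separate cultures, so the spread between arrays may be technical.

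Proteins of this family share a short conserved stretch, the TSC box, followed by a leucine zipper through which they pair with each other and with other proteins. Tsc22d1 is the founding member and was found as a gene switched on by TGF-beta. Tsc22d3, better known as GILZ, is a classical gene of the glucocorticoid response and of FOXO factors, and its protein restrains NF-kappaB and AP-1 in lymphocytes. The long forms of the family also work with the pseudokinase Nrbp1 and the WNK kinases, which sense cell volume and set ion transport.

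RefSeq start sites show how far apart the transcripts of Tsc22d1 begin. The promoter table held 5 windows for Tsc22d1 and 3 for Tsc22d3 on build GRCm38.p6, and the distance between the first and the last Tsc22d1 start was 89549 bases on chromosome 14. The stretches before the first start, before the start that lies 89265 bases downstream of it and before the Tsc22d3 start farthest upstream are printed here, because several starts per gene bear on how probe sets of 1 gene can be read. Each stretch is 250 bases long, ends at the base before the start and is written 5′ to 3′ on the gene's strand. Capitals mark the core of the EBF recognition sequence, CCCNNGGG.
Tsc22d1, first start, chr14:76414711-76414960, plus strand: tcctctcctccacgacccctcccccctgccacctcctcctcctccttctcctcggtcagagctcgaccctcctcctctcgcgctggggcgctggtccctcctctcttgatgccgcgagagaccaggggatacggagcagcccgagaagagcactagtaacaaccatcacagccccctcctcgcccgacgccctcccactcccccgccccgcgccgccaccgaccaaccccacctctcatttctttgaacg
Tsc22d1, downstream start, chr14:76503976-76504225, plus strand: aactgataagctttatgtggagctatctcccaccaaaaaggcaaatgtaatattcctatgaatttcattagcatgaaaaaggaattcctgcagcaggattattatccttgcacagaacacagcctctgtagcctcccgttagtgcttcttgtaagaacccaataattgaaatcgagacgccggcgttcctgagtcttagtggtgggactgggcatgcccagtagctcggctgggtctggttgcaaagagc
Tsc22d3, upstream start, chrX:140600523-140600772, minus strand: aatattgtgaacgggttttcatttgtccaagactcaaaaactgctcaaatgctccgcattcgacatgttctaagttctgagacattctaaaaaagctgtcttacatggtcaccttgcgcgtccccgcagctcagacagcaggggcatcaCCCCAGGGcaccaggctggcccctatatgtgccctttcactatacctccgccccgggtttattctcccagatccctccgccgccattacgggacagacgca

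The first Tsc22d1 stretch was GC-rich (66.8%), the downstream one was not (46.0%), and the Tsc22d3 stretch had 52.4%. CCCNNGGG, searched on both strands in the 8 full windows, was found in 1 window, the Tsc22d3 window shown, where the match CCCCAGGG begins 101 bases before the start. The same motif was present in 13.7% of all 32851 windows. A longer form of it, with T before and A after these letters, was found in 0 of the 8 windows and in 0.904% of all windows, and the FOXO motif TGTTTAC in 0 of the 8 and in 3.65% of all. These are matches of letters in short windows. Which transcript each probe set reads is not known here.

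Values below are the deposited linear intensities, and differences are EBF minus control on the scale log2(intensity + 32). Arrays had median intensities of 424 to 451, and the median difference over all probe sets was 0.02. Control probe sets for Bacillus transcripts reached 410 at most, with medians per array of 97.6 to 108, and are taken here as the level of probe sets without a mouse target. EBF 3 deviated most from its group (root mean square 0.151 on the log2 scale over the brighter probe sets, against at most 0.124 for the other arrays). Ebf1 itself read 4537 ± 394 in the EBF arrays and 4169 ± 127 in the controls (SD, n = 3 each) at its brightest probe set, but it is not known here whether this set reads the viral transcript. Of 11 measured pro-B markers 10 had a mean above the highest Bacillus control, Blnk being the other, and so did 12 of 14 stromal, 5 of 8 myeloid, 4 of 6 T cell, 2 of 3 erythroid and 0 of 6 NK cell markers. That level (410) lies below the median of every array (424 to 451), so most probe sets on each array pass it. The share of all genes above it was not computed, and these counts do not show that a cell type was present.

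The family was chosen by its EBF minus control difference, since a Tsc22d1 probe set stood among the largest decreases between these 2 groups. Levels and differences of the members between EBF and control are therefore given as a description with no test.

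Tsc22d1 signal was lower in the EBF arrays at 5 of its 7 probe sets, by about the same proportion at 3 of them and by less at the other two. The brightest, 1454971_x_at, read 2816, 2454 and 2530 in EBF 1 to 3 and 5143, 6603 and 4184 in control 1 to 3. All EBF arrays lay below all control arrays, and the means were 2600 ± 191 and 5310 ± 1218 (SD, n = 3 each), a log2 difference of -0.999 ± 0.15 (limma's SE). The spread was wide in the controls, with a coefficient of variation of 22.9%, and narrow in the EBF arrays (7.34%).

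Probe set 1425742_a_at gave nearly the same picture. It read 2166, 1724 and 1632 in EBF 1 to 3 and 3873, 4577 and 2745 in control 1 to 3, a log2 difference of -0.99 ± 0.18. The groups did not overlap, control 3 was the lowest control and EBF 1 the highest EBF array. Its suffix, in Affymetrix naming, marks a set that reads several transcripts of 1 gene, whereas x marks a set some of whose probes also match other sequences. Probe set 1456132_x_at read 1097, 1035 and 1061 in the EBF arrays and 2086, 2581 and 1549 in the controls, a log2 difference of -0.91 ± 0.16. Its EBF arrays were almost level with each other (2.92% coefficient of variation), while its controls varied by 24.9%.

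A pair of probe sets drawn from 1 and the same GenBank entry showed smaller differences. Probe set 1454758_a_at read 1977, 1379 and 1395 in EBF 1 to 3 and 2590, 2862 and 2045 in control 1 to 3, a log2 difference of -0.65 ± 0.16. EBF 1 came within the reach of control 3 there, although the groups did not overlap. Its partner 1433899_x_at read 1915, 1451 and 1489 in the EBF arrays and 2452, 2701 and 2012 in the controls, a log2 difference of -0.55 ± 0.14. Again EBF 1 stood above EBF 2 and EBF 3 and just below control 3.

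The last pair of Tsc22d1 probe sets did not separate the groups. Probe set 1435952_at read 729, 654 and 606 in EBF 1 to 3 and 574, 654 and 566 in control 1 to 3, a log2 difference of 0.14 ± 0.09, with EBF 2 level with control 2. Probe set 1439111_at read 497, 542 and 714 in the EBF arrays and 530, 704 and 633 in the controls, a log2 difference of -0.09 ± 0.14. Both sets read above the highest Bacillus control on all 6 arrays.

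**Figure D1:**
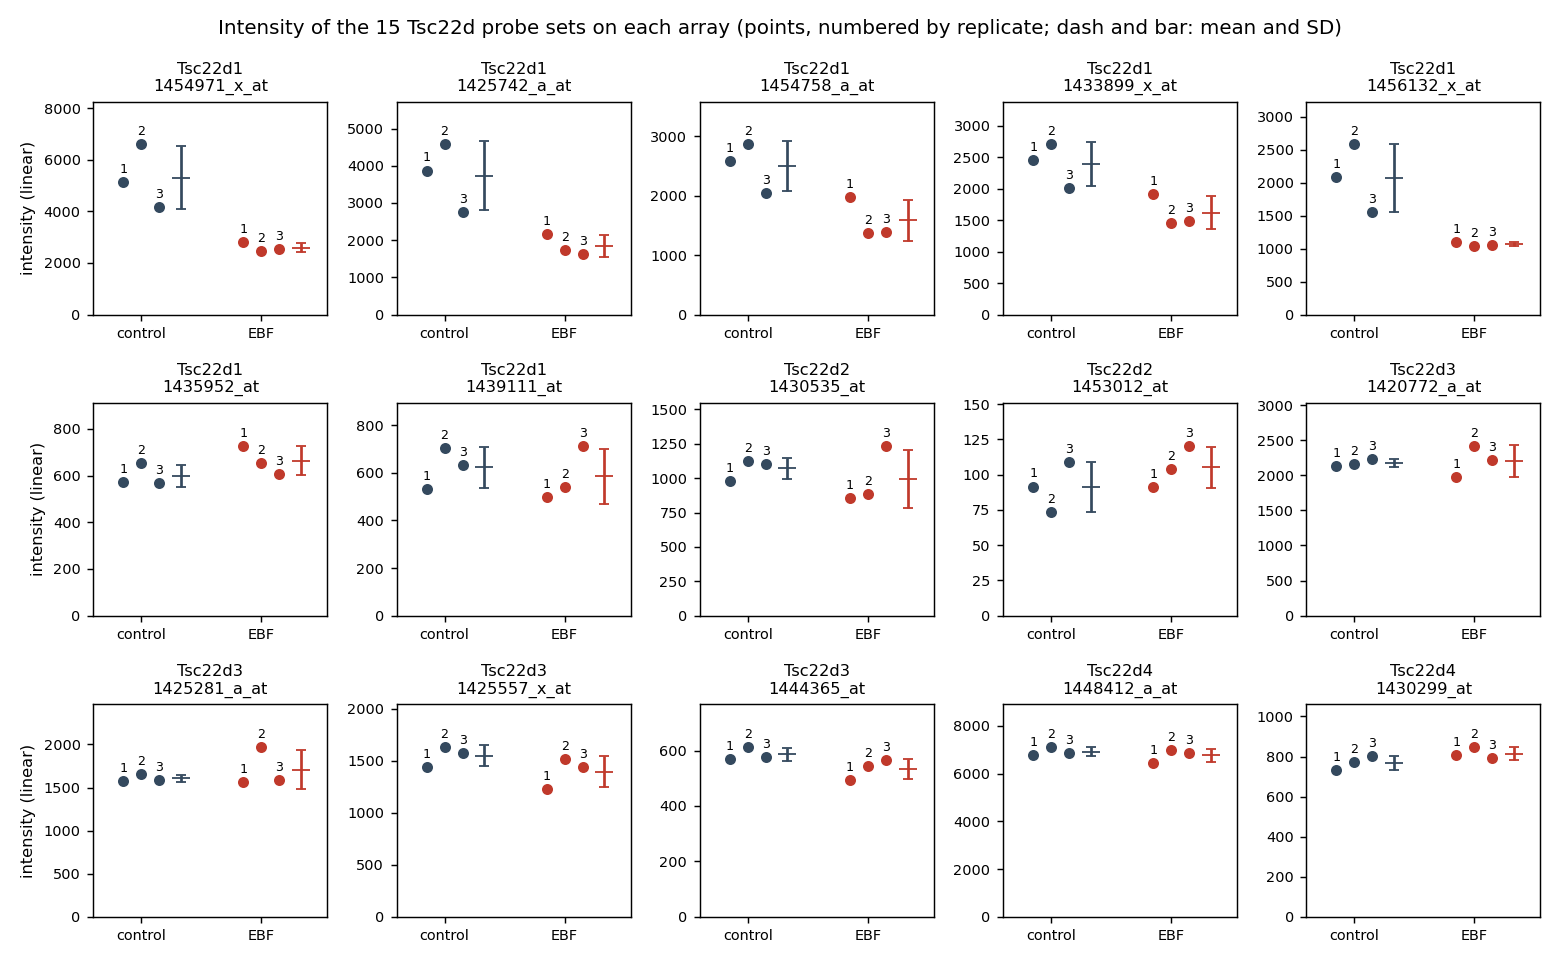
Linear intensity of each of the 15 probe sets on the 3 control and 3 EBF arrays, with points numbered by replicate, a dash for the group mean, a bar for the SD and axes that start at 0. In the 5 Tsc22d1 panels of the top row every EBF array lies below every control array, while the 2 other Tsc22d1 panels overlap.

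The 5 lower Tsc22d1 probe sets moved together from array to array. All 5 had their controls in the order control 2, control 1, control 3, and EBF 1 as the highest EBF array. Taking arrays of the same replicate number together, the difference was widest for number 2 at all 5 sets (-0.88 to -1.42), and it ran from -0.35 to -0.91 for number 1 and from -0.43 to -0.74 for number 3. These probe sets were read on the same 6 arrays, so this is no independent repeat. Without each array in turn, the 5 differences stayed between -0.46 and -1.19.

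**Figure D2:**
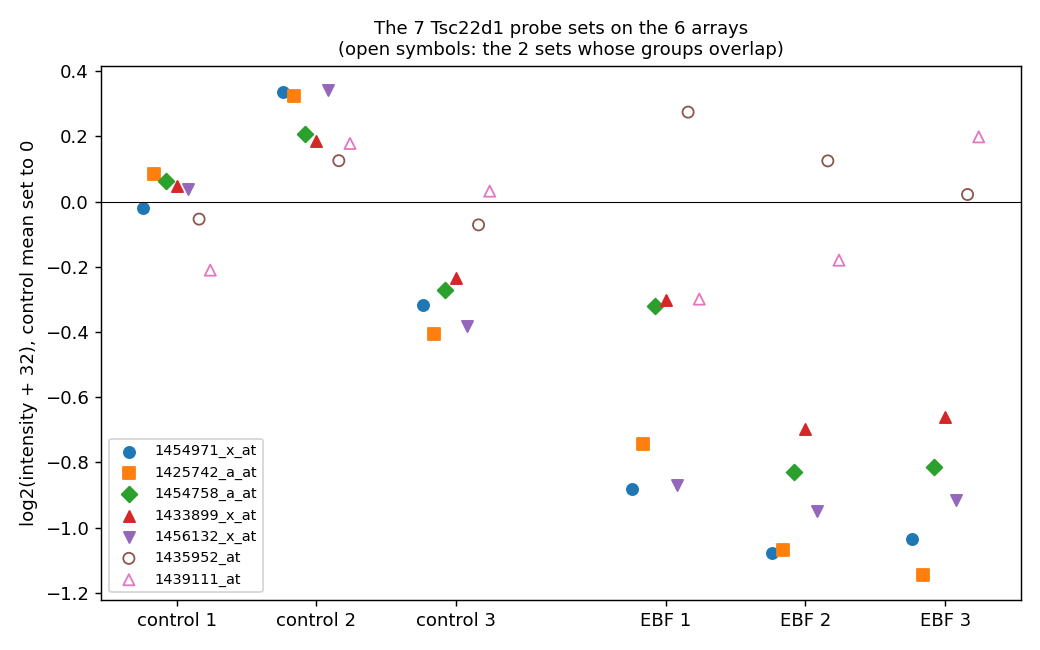
The 7 Tsc22d1 probe sets on each array as log2(intensity + 32) with each set's control mean at 0; filled symbols are the 5 sets with groups that did not overlap, open symbols the other 2. The filled symbols lie lower in the EBF arrays, and control 3 and EBF 1 are the arrays in which the groups come closest.

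Cells grown on stroma can carry stromal RNA along, so stromal markers were read beside Tsc22d1. The summed intensity of the 14 stromal markers was 25296, 18117 and 22151 in EBF 1 to 3 and 19749, 26318 and 31975 in control 1 to 3. The groups overlapped, and control 3, with the highest stromal sum, had the lowest Tsc22d1 signal among the controls at all 5 sets, while EBF 1, with the highest stromal sum of its group, had the highest Tsc22d1 signal there. By limma 0 of the 14 stromal markers passed in either direction (1 at an unadjusted p below 0.05). Their median log2 difference was -0.19, with a range from -0.52 (Cxcl12) to 0.31 (Postn), and with Col1a1 at -0.32 and Sparc at 0.12. The summed myeloid markers read 4533 to 4820 in the EBF arrays and 4712 to 5168 in the controls, with 1 of 8 lower (Lyz2, log2 -0.48 ± 0.07). The limma adjusted p of Lyz2 was 0.0169, blocked 0.00733. Unblocked, it was above 0.05 without any 1 array other than EBF 3 (0.101 at most). The summed pro-B markers were higher in all EBF arrays (63702 to 64629) than in all controls (54739 to 56880), and the list's median log2 difference was 0.10. Bright genes weigh most in such a sum, so it does not measure pro-B cell content. Igll1 had means of 13668 in the EBF arrays and 9243 in the controls, while Kit, which went the other way, had 1167 and 2050. Over all genes 0.671% were called lower by limma and 0.418% higher, and with the replicate block 2.52% lower and 4.82% higher. Of the 11 measured pro-B genes 2 were lower by limma and 0 higher, and with the replicate block 2 were lower and 3 higher. The 3, named after their values were seen, were Igll1, a part of the surrogate light chain (log2 0.57 ± 0.12; limma adjusted p = 0.0788, blocked 0.00409), Cd79b, a signalling chain of the B cell receptor (0.40 ± 0.08; 0.0808, blocked 0.0191), and Il7r, the IL-7 receptor chain (0.42 ± 0.16; 0.221, blocked 0.0224). All EBF arrays lay above all controls for Igll1 and Cd79b, while the groups overlapped for Il7r. Without EBF 3 the unblocked fit called Igll1 and Cd79b higher (limma adjusted p = 0.0200 and 0.0410). The lower genes were Kit (-0.79 ± 0.11) and Dntt (-0.70 ± 0.10). Kit and Dntt, which mark immature lymphoid cells, had adjusted p-values of 0.0187 and 0.0226 by limma without the block; Kit lost the call without EBF 1, EBF 2, control 1 or control 2 (0.0995 at most) and Dntt without EBF 1, EBF 2, control 1 or control 3 (0.106 at most). The part of these markers in the Tsc22d1 difference was not tested. In bulk RNA, fewer cells of a type and less RNA per cell cannot be told apart.

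Tsc22d3 (GILZ) did not separate the groups at its 3 brighter probe sets. Probe set 1420772_a_at read 1974, 2424 and 2214 in EBF 1 to 3 and 2133, 2157 and 2235 in control 1 to 3, a log2 difference of 0.01 ± 0.09. The controls were within 1.05-fold of each other, and the EBF arrays lay on both sides of them. Probe set 1425281_a_at read 1563, 1973 and 1590 in the EBF arrays and 1576, 1657 and 1589 in the controls (log2 0.08 ± 0.10), with EBF 2 alone standing above the rest. Probe set 1425557_x_at read 1231, 1521 and 1442 in the EBF arrays and 1441, 1636 and 1571 in the controls (log2 -0.15 ± 0.10), and EBF 2 and EBF 3 overlapped control 1.

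The dimmest Tsc22d3 probe set, 1444365_at, was the only set outside Tsc22d1 with groups that did not overlap. It read 493, 542 and 564 in EBF 1 to 3 and 569, 614 and 577 in control 1 to 3, a log2 difference of -0.13 ± 0.08. EBF 3 and control 1 were almost level there. EBF 1 was the lowest array at all 4 Tsc22d3 sets.

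Tsc22d4, which pairs with Tsc22d1 and other family members, showed steady signal. Its probe set 1448412_a_at read 6454, 6992 and 6847 in EBF 1 to 3 and 6767, 7131 and 6867 in control 1 to 3, a log2 difference of -0.03 ± 0.07. The coefficients of variation were 4.12% in the EBF arrays and 2.72% in the controls. The other set, 1430299_at, read 805, 849 and 791 in the EBF arrays and 734, 772 and 803 in the controls (log2 0.08 ± 0.07), with EBF 3 between control 2 and control 3.

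Tsc22d2 was read by 1 probe set above background. That set, 1430535_at, read 858, 887 and 1237 in EBF 1 to 3 and 982, 1126 and 1103 in control 1 to 3, a log2 difference of -0.12 ± 0.14. EBF 3 was the highest of all 6 arrays and EBF 1 and EBF 2 were the lowest, so the wide EBF spread (21.2% coefficient of variation) came from 1 array. The other set, 1453012_at, read 91.5, 104 and 121 in the EBF arrays and 91.6, 73.4 and 109 in the controls, which is the level of the Bacillus controls, and its log2 difference of 0.16 ± 0.12 is between signals near background.

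**Figure D3:**
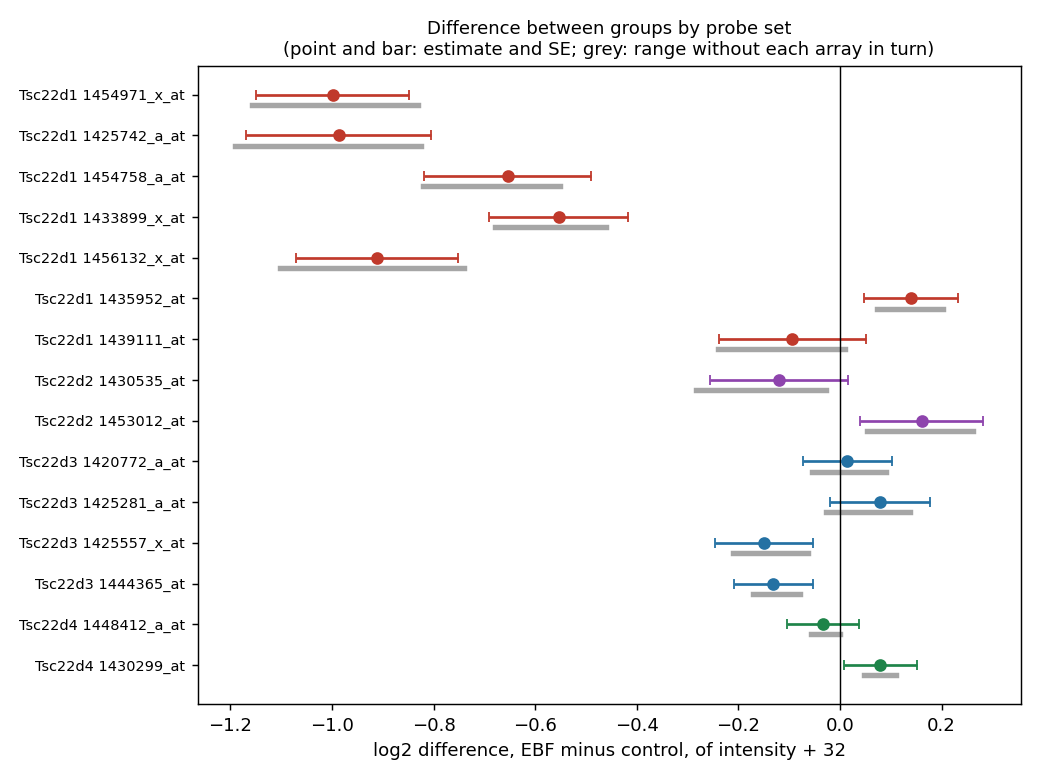
Log2 difference (EBF minus control, of intensity + 32) of each probe set with limma's SE as a bar, and in grey the range of the difference without each array in turn. The 5 lower Tsc22d1 sets lie between -0.999 and -0.55, and the other 10 sets between -0.15 and 0.16.

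Across the family 6 of 15 probe sets had all EBF arrays below all controls, where 7.67% of all probe sets did, and 0 had all EBF arrays above them (15.5% of all). In the fit across the whole array (limma, adjusted p below 0.05) 2 of the 15 were called lower, 1454971_x_at and 1456132_x_at, against 0.531% of all probe sets, and 0 were called higher, against 0.344%. With the replicate number as a block all 5 of the lower Tsc22d1 sets were called, against 2.40% of all probe sets called lower. The count was 0 without EBF 1, EBF 2, control 1 or control 2, 3 without EBF 3 and 3 without control 3, while the share of all probe sets called lower was 0.142%, 0.0955% and 2.76% without EBF 1, 2 and 3 and 0.111%, 0.113% and 0.322% without control 1, 2 and 3. Without EBF 3 and control 2 together 2 were called, against 1.11%. The contrast itself led to the choice of this family, so nothing is read from these counts.

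The genes most like the brightest Tsc22d1 probe set over the 6 arrays were Cdh13, Pmaip1, Stk17b, Clnk, Gsn and Lrp12, in that order. Likeness was the root mean square difference between log2 profiles, each centred on its own mean, among 15383 genes with a mean intensity of at least 200. It was 0.12 for Cdh13, a cadherin without a transmembrane part, and 0.18 for Lrp12, against a median of 0.55 over all genes compared. Cdh13 read 1135, 950 and 921 in EBF 1 to 3 and 2213, 2180 and 1675 in control 1 to 3. Like Tsc22d1, it had EBF 1 as the highest EBF array and control 3 as the lowest control. Pmaip1, the pro-apoptotic Noxa gene, read 1302, 1429 and 1292 in the EBF arrays and 2330, 3326 and 2256 in the controls, with control 2 far above the other two as in Tsc22d1. Stk17b, a kinase of the death-associated family, read 3216, 3567 and 3374 in the EBF arrays and 5414, 7374 and 4638 in the controls and had a log2 difference of -0.75. The genes most like the brightest Tsc22d3 set were Defb45, Hbs1l and Orc4 (0.01 to 0.02, against a median of 0.14), with differences of -0.00, 0.01 and 0.01 on the log2 scale. All these genes were picked for likeness over the same 6 arrays, so shared array orders and similar differences follow from the choice.

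The 5 lists of related genes were then read, each gene by its brightest probe set, with limma adjusted over all probe sets. Over all 18193 genes, 0.671% were called lower and 0.418% higher, and the median difference was 0.03. Counts at an unadjusted p below 0.05, for these lists and for the stromal markers, stand without the share of all genes at that level. Nothing is read from them.

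In the WNK and NRBP pathway, through which long TSC22D proteins act on ion transport, 0 of 15 measured genes passed (2 at an unadjusted p below 0.05), with a median of -0.01. Nrbp1, the pseudokinase partner, read 2259 ± 196 in the EBF arrays and 2486 ± 91.9 in the controls (SD, n = 3 each; log2 -0.14 ± 0.08), and Nrbp2 had -0.04. Wnk1, the kinase at the head of the pathway, had -0.05 ± 0.08, and its substrate kinase Oxsr1 had -0.07. With the replicate block 2 genes were higher: the kinase Stk39 (0.33 ± 0.16; limma adjusted p = 0.300, blocked 0.0304), which was dim at 179 and 135, and the sodium-potassium-chloride cotransporter Slc12a2, named after its values were seen (0.32 ± 0.09; 0.133, blocked 0.0350). Blocked, 4.82% of all genes were called higher and 2.52% lower. Slc12a2 read 961 ± 80.3 against 763 ± 45.9, with groups that did not overlap.

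In the glucocorticoid list 1 of 19 measured genes was lower and 0 were higher (6 at an unadjusted p below 0.05 by limma), with a median of -0.01. The lower gene was Anxa1, the anti-inflammatory annexin A1. It read 3517, 3380 and 3671 in EBF 1 to 3 and 4714, 5314 and 5081 in control 1 to 3. The groups lay well apart (log2 -0.51 ± 0.08, limma adjusted p = 0.0263, blocked 0.00827). Unblocked, Anxa1 missed the threshold without EBF 1, EBF 2, control 1, control 2 or control 3 (0.0713 to 0.145). It passed without EBF 3 (0.0125), where 1 gene of the list was lower and 1 higher, against 2.89% and 7.11% of all genes. Over the whole array 394 probe sets were called with all 6 arrays, 79 to 214 without 1 array other than EBF 3, and 4287 without EBF 3. Nr3c1, the glucocorticoid receptor, read 2064 ± 191 and 1672 ± 150 (SD, n = 3 each), a log2 difference of 0.30 ± 0.10 (limma adjusted p = 0.178, blocked 0.0436). Fkbp5 and Klf9, textbook targets of the receptor like Tsc22d3, had 0.08 ± 0.07 and 0.02 ± 0.16. The blocked fit also called Ddit4, an inhibitor of mTORC1 named here after its values were seen, lower (-0.51 ± 0.12; 0.101, blocked 0.0343).

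Among FOXO factors and targets 0 of 19 measured genes passed by limma, with 9 at an unadjusted p below 0.05 and a median of -0.13. Foxo1 had a log2 difference of 0.35 ± 0.17 (adjusted p = 0.301 by limma, blocked 0.0401), and Foxo3, which acts upstream of Tsc22d3 in lymphocytes, of -0.19 ± 0.07 (0.194, blocked 0.149). Of the genes named after their values were seen, Txnip, which binds thioredoxin and limits glucose uptake, read 3052, 2835 and 3524 in EBF 1 to 3 and 4227, 5004 and 4657 in control 1 to 3. The groups did not overlap (log2 -0.56 ± 0.10, limma adjusted p = 0.0522, blocked 0.0111). Pik3ip1, an inhibitor of PI3 kinase, read 2710 ± 188 and 3671 ± 261 (-0.43 ± 0.08; 0.0671, blocked 0.0115 in limma), and Il7r had 0.42 ± 0.16 (0.221, blocked 0.0224). In the blocked fit 2 genes of the list were thus higher and 2 lower, and without EBF 3 the list had 3 lower and 0 higher, against 2.89% and 7.11% of all genes.

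In the TGF-beta pathway, the setting in which Tsc22d1 was found, 0 of 22 measured genes passed (3 at an unadjusted p below 0.05 by limma), with a median of -0.07. The ligand gene Tgfb1 had 0.24 ± 0.13, and the receptor genes Tgfbr1 and Tgfbr2 had -0.13 ± 0.11 and -0.11 ± 0.08. Smad3, which carries the signal to the nucleus, had -0.10 ± 0.08. Smad7, an inhibitor that the pathway itself induces, read 1605 ± 240 in the EBF arrays and 2171 ± 326 in the controls (SD, n = 3 each), with groups that overlapped (-0.43 ± 0.14, limma adjusted p = 0.170, blocked 0.0258). Without EBF 3, 1 gene of the list was lower and 1 higher, against 2.89% and 7.11% of all genes.

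Of the described binding partners of Tsc22d3, 3 of 7 listed genes were measured here and 0 passed by limma (1 at an unadjusted p below 0.05). The other 4 were not analysed here. Fos, an AP-1 subunit, read 823, 1904 and 645 in EBF 1 to 3 and 1607, 4354 and 1132 in control 1 to 3, with the number 2 array far the highest in each group (log2 -0.97 ± 0.51, adjusted p = 0.339, blocked 6.16e-04). Jun, its partner, read 1505, 4680 and 1025 in the EBF arrays and 1709, 5704 and 1464 in the controls (-0.32 ± 0.62; 0.807, blocked 0.0527). Dusp1, an immediate early phosphatase gene of the glucocorticoid list that was also singled out by its values, read 2448 in EBF 2 and 4367 in control 2, and 1109 to 1292 on the other 4 arrays. Rela, the NF-kappaB subunit, had -0.21 ± 0.08 (0.223, blocked 0.113). Control 2, high for Fos, Jun and Dusp1, was also the highest control at the 5 lower Tsc22d1 sets, whereas EBF 2 was not the highest EBF array at any of these sets. The part of these early genes in the Tsc22d1 difference was not tested.

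**Figure D4:**
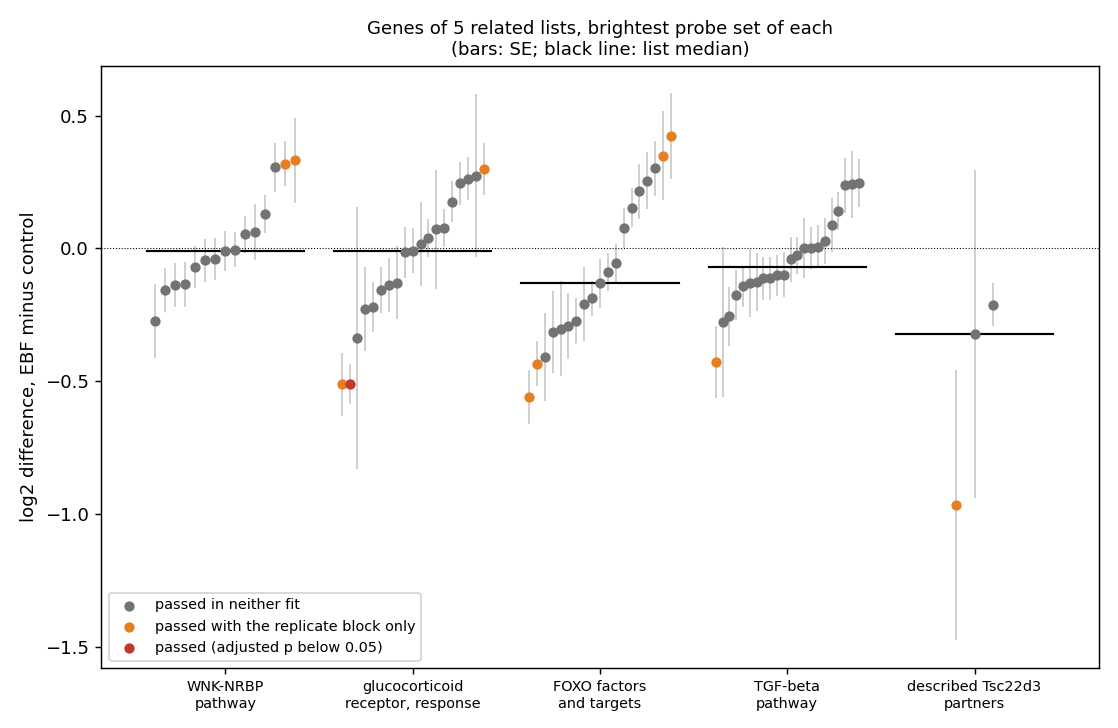
Log2 difference (EBF minus control) of each measured gene of the 5 lists at its brightest probe set, with limma's SE as a bar and the list median as a black line. Anxa1 is the 1 gene past the threshold, and the genes in orange passed with the replicate block only.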

How the data were processed

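The authors deposited 1 linear intensity per probe set and array; the sources used here do not give the software, background step or normalization behind them. Per the labels' protocols, biotinylated cRNA was made from 6 microg of total RNA. The design text names a rat array, but the platform's gene table pairs the probe sets with mouse genes, so they were read as mouse. The 64 Affymetrix control sets among the 45101 rows were not tested. Of the rest 34945 had 1 gene symbol, 932 several and 9160 none listed. Of the sets with 1 symbol, 34741 had a gene ID found in the RefSeq table (GRCm38.p6).

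Intensities were analysed as log2(intensity + 32), which understates the change of dim probe sets, without further scaling. limma 3.58.1 in R 4.3.3 (lmFit, eBayes, two-sided, with no term beside the group) was fitted to all probe sets, with Benjamini-Hochberg adjustment over all of them and a threshold of 0.05. The fit was tested on simulated data with independent errors on each array, so the likeness by replicate number described below was not covered. The number of arrays limits the precision.

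Members and lists were chosen with earlier results of these data known. Named genes were all member probe sets, central genes and passing genes of each list, and the genes most like Tsc22d1 and Tsc22d3. Markers covered pro-B, stromal, myeloid, T, NK and erythroid cells.

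Arrays of the same replicate number varied alike. Deviations from group means, over probe sets of above-median brightness, correlated at 0.318 between the arrays numbered 1. The correlation was 0.255 between those numbered 2 and 0.503 between those numbered 3. All were over the limit of 0.1, and arrays of unlike number correlated at 0.058 at most. Deviations within a group of 3 cancel out, so these correlations are not independent and do not establish a pairing. The labels do not state a pairing, and the replicate block rests on these values.

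Alternatives were pseudocounts of 8 and 128, a mean intensity of at least 200, median scaling, quantile normalization, the replicate block, each array left out and every probe set of the listed genes counted. Leaving out EBF 3 and control 2 together was added after the data were seen.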

Additional observations from a re-analysis of the deposited data

How the results depend on the processing

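The differences of the 15 probe sets were computed under 194 combinations of set and alternative, of which 192 moved by less than 1 SD between replicates and 5 changed sign, all at sets outside the 5 lower Tsc22d1 ones. Both larger moves came without EBF 3 and control 2 together: with arrays left out, 1435952_at of Tsc22d1 ran from 0.073 to 0.26 and 1453012_at of Tsc22d2 from -0.026 to 0.26. The 2 member probe sets called became 1 with the lower pseudocount, 3 with median scaling and 5 with the replicate block. Without 1 array they were 0 to 3. Of all 45037 probe sets, the 394 called became 279 with the lower pseudocount, 409 with median scaling and 3280 with the block. They were 1887 without EBF 3 and control 2, and 79 to 4287 without 1 array. With the block the WNK and NRBP list had 2 calls of 15 genes, the glucocorticoid list 3 of 19 and the FOXO list 4 of 19. The TGF-beta list had 1 of 22 and the Tsc22d3 partner list 1 of 3. Blocked, 2.52% of all genes were called lower and 4.82% higher. The FOXO list had 2 calls with the higher pseudocount, 1 with a mean intensity of at least 200, 2 with median scaling, 1 with quantile normalization and 3 without EBF 3 and control 2. Without 1 array the calls ran from 0 to 2 in the glucocorticoid list, 0 to 3 in the FOXO list and 0 to 2 in the TGF-beta list. The highest of these counts came without EBF 3, where 2.89% of all genes were called lower and 7.11% higher. Nothing is read from these list counts. Signal over background limits 1453012_at, which lies at the level of the Bacillus controls, and 14 of the 15 sets had a mean of at least 200.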
